A study of Mus musculus with 6 samples.

Results

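BMAL1, encoded by Arntl, and the proteins it pairs with, CLOCK and NPAS2, form the activating arm of the circadian clock. The 3 genes were followed by symbol in the platform annotation, which gave 5 probe sets naming only 1 of them out of 22690 on the array: 1425099_a_at for Arntl, 1418659_at and 1418660_at for Clock, and 1421036_at and 1421037_at for Npas2. The animals were male C57BL/6J mice of 8 to 12 weeks, either wild type (replicates 1 to 3) or Bmal1-/- (replicates 4 to 6), under 12 hours of light and 12 of dark. Pituitaries were taken at zeitgeber time (ZT) 12, when the lights go off, and each of the 6 arrays carried RNA from a pool of 3 glands of 1 genotype, so n = 3 pools per genotype throughout. No other allele or agent is named for either genotype. The sources used here do not say which part of the gene is deleted, how the allele was made or whether the genotypes were littermates.

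BMAL1, CLOCK and NPAS2 belong to the bHLH-PAS family, in which a basic helix-loop-helix region holds the DNA and PAS domains hold the partner. BMAL1 binds the E-box element as a pair with either CLOCK or NPAS2 and switches on the Period and Cryptochrome genes, whose products shut the pair down, and the Nr1d1 and Nr1d2 genes. The products of the last 2, REV-ERB alpha and REV-ERB beta, repress genes that carry a REV-ERB/ROR response element (RRE), among them Arntl, Clock and Npas2, while the ROR receptors activate through the same element. CLOCK and NPAS2 are close relatives that can stand in for each other in some tissues, and NPAS2 was first known from the forebrain.

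The RRE is the element through which these genes are regulated, and the E-box is the element that the BMAL1 pairs bind. Matches to both were looked for in the RefSeq promoter windows (GRCm38.p6) of the 3 genes. These windows run from 250 bases before to 50 bases after each annotated start. The RRE was searched as ANTNGGTCA, the E-box as CACGTG and the D-box, the element of the DBP family, as TTANGTAA, on both strands. The RRE was first searched with an A required just before these letters and was shortened afterwards. The 3 genes have 6 windows, and 1 match was found, an RRE of Arntl that begins at base 29 counted from an annotated start and was found with and without that A. A second form, AGTAGGTNA, which was chosen after the sequence was seen and frees another base, overlaps this match and also marks a second stretch in Arntl, 36 bases earlier and beginning 8 bases before the same start. The same search of Nfil3, a clock gene known to be driven through an RRE, found ANTNGGTCA on the opposite strand, 12 bases before its annotated start, without the A before it. These 3 stretches are shown because they are the letters that the REV-ERB and ROR receptors described further on can read, with the match in capitals.
Arntl, chr7:113207494-113207520, plus strand: tggtcggaaAGTAGGTTAgtggtgcga
Arntl, chr7:113207530-113207556, plus strand: aaggcagaaAGTAGGTCAgggacggag
Nfil3, chr13:52981034-52981060, minus strand: gctcggaacTGACCTACTaacacacat
Of all 32851 promoter windows, 2.24% hold ANTNGGTCA (0.606% with the A before it), 0.591% hold AGTAGGTNA, 7.15% hold CACGTG and 2.32% hold TTANGTAA. Neither the 3 windows of Clock nor the 1 window of Npas2 hold any of these letters, and the single windows of Cry1 and E2f8 hold neither RRE form. A match describes the sequence only, since no binding was measured.

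Values are intensities on a linear scale. Differences between the genotypes were taken as log2(intensity + 16) and tested with limma over the 13576 probe sets that are brightest on average, with a call at a Benjamini-Hochberg adjusted p under 0.05. The dimmest of these probe sets has a mean level that corresponds to an intensity of 17.3. By this rule 5.54% of the tested probe sets were called: 2.75% were higher where the label is Bmal1-/- and 2.78% lower. The median log2 level of the tested probe sets was 6.75 on all 6 arrays. Over all probe sets other than controls, the median intensity was 34.0, 33.5 and 34.3 in wild-type pools. It was lower, at 31.8, 32.2 and 31.7, on the arrays labelled Bmal1-/-. Because these are whole glands, more cells of a type and more RNA per cell cannot be told apart in any value below.

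All 3 genes were higher on the arrays labelled Bmal1-/-, the targeted gene included. Of the 5 probe sets, 4 were bright enough to be tested. The 1 of Arntl and both of Clock rose, where 2.75% of tested probe sets were called higher. The tested probe set of Npas2 was also called, but it entered the test only through the arrays labelled Bmal1-/-, so its call is not counted beside that share. At all 5 the lowest array labelled Bmal1-/- was above the highest wild-type array. This was so for 12.6% of tested probe sets, a share that can be set beside Arntl and Clock only. Of the Npas2 probe sets, 1 entered the test only through the arrays labelled Bmal1-/- and the other was not tested. At the brighter probe set of each gene the rise was largest for Npas2, next for Arntl and smallest for Clock.

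**Figure D1:**
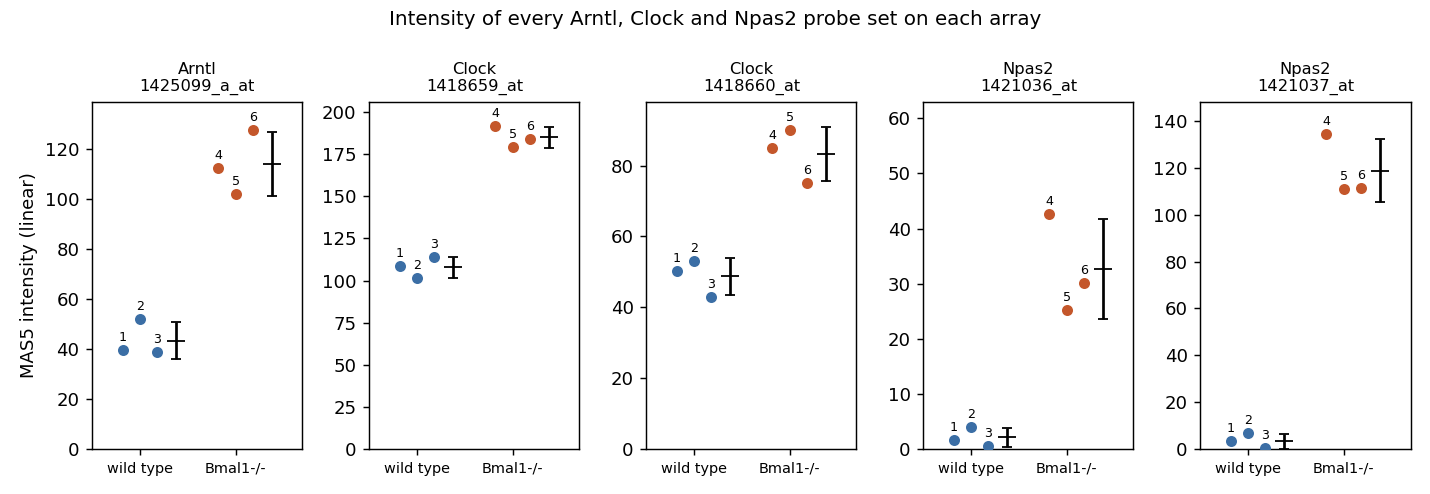
MAS5 intensity (linear, from 0) of each Arntl, Clock and Npas2 probe set on each array, wild type in blue and Bmal1-/- in orange, with replicate numbers beside the points. Black bars give the mean and SD of 3 arrays. The 3 orange points lie above the 3 blue ones in every panel, and both Npas2 probe sets are near 0 in wild type.

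Arntl was read by 1 probe set, whose suffix (_a_at) marks a design shared by alternative transcripts of a gene. Its intensity was 39.6, 51.7 and 38.6 in wild-type pools and 112.1, 102 and 127.5 on the arrays labelled Bmal1-/-. The wild-type arrays thus stayed below 52 and the others above 100, with wild-type replicate 2 the highest of its group. The means were 43.3 ± 7.29 (SD, n = 3) and 114 ± 12.8, a ratio of 2.63, and the log2 fold change was 1.13 (SE 0.14, 95% confidence interval 0.84 to 1.43, limma adjusted p = 0.000653). Only 23 of the 13576 tested probe sets had a larger rise. Whether these probes fall inside the deleted part is not stated in the sources used here, and a probe set outside that part checks nothing about the genotype. The value therefore shows a transcript with these probe sequences, not whether BMAL1 protein was made, and directions are stated for the arrays as labelled.

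Clock encodes the partner that pairs with BMAL1 in most tissues and that has been reported to acetylate histones. Its brighter probe set, 1418659_at, read 108.6, 101.3 and 113.7 in wild-type pools and 191.8, 179.3 and 184.2 on the arrays labelled Bmal1-/-. The other, 1418660_at, read 50.2, 53.1 and 42.8 against 84.9, 90 and 75. On both, no wild-type array came near the lowest array of the other genotype. The ratio of means was 1.72 at the first and 1.71 at the second, so 2 designs against the same transcript sequence (both annotated to BB203106) gave nearly the same change.

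The log2 fold change of Clock was 0.70 (SE 0.10, 95% confidence interval 0.48 to 0.92, limma adjusted p = 0.00221) at 1418659_at. At 1418660_at it was 0.62 (SE 0.13, adjusted p = 0.0186). The call of 1418660_at, the dimmer of the pair, was lost without wild-type replicate 3 (adjusted p = 0.0719), Bmal1-/- replicate 4 (0.064) or Bmal1-/- replicate 5 (0.0838) and, at 0.0528, when all 22626 probe sets other than controls were tested. The call of 1418659_at held with any array left out, at log2 fold changes of 0.66 to 0.73. Among pools, 1418659_at had a coefficient of variation of 5.78% (wild type) and 3.4% (Bmal1-/-), and 1418660_at of 10.9% and 9.16%. Arntl, whose probe set is about as bright as 1418660_at in wild type, had 16.8% and 11.3%.

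Npas2, which encodes the alternative partner of BMAL1, went from near background to a clear signal. Its brighter probe set, 1421037_at, read 3.2, 6.6 and 0.2 in wild-type pools and 134.5, 110.9 and 111.3 on the arrays labelled Bmal1-/-. The second, 1421036_at, read 1.6, 4 and 0.6 against 42.7, 25.2 and 30.1. All wild-type values of both are under the intensity of 17.3 at which testing began, and all values of the other genotype are above it. No detection calls were used here, so the wild-type level has no lower bound of its own. A probe set that is dim in 1 genotype enters the test only through the other and then had to differ, so the call of Npas2 adds little to its values.

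For 1421037_at the means were 3.33 ± 3.20 and 119 ± 13.5, and the log2 difference was 2.81 (SE 0.16, limma adjusted p = 1.82e-06) with the constant of 16 added before taking logarithms. It was 5.15 with 1 added and 1.44 with 64, so with its wild-type arrays this near 0 Npas2 has no well-defined fold, and its rank among the tested probe sets is not given. The probe set 1421036_at lay under the brightness limit. In a fit of all 22626 probe sets other than controls, of which 0.778% were called higher, its log2 fold change was 1.42 (SE 0.18, adjusted p = 0.00612).

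The changes of the 3 genes were set against each other within each array, at the brighter probe set of each gene. The log2 ratio of Npas2 to Clock within each array was -2.70, -2.38 and -3.00 in wild-type pools and -0.47, -0.62 and -0.65 on the arrays labelled Bmal1-/-, a difference of 2.11 (SE 0.19). The ratio of Npas2 to Arntl moved by 1.68 (SE 0.14), from -1.62 ± 0.11 to 0.05 ± 0.21. That of Arntl to Clock moved by 0.43 (SE 0.16), from -1.16, -0.79 and -1.25 to -0.70, -0.73 and -0.48. Replicates did not overlap in any of the 3 ratios, though wild-type replicate 2, at -0.79, came close to the other genotype in the last. An exact permutation test over arrays (two-sided) gave p = 0.1 for each ratio, the smallest possible with 3 against 3 arrays, and 0.1 after adjustment over the 3 pairs, so none can pass 0.05 in this design. Only the change in a ratio is meaningful here, because probe sets differ in how strongly they bind their target. The ratio of Arntl to Clock moved by 0.19 with 64 added (exact permutation p = 0.3), and its exact p was 0.1 or 0.2 with 1 array left out. The ratios of Npas2 inherit its dependence on the added constant and also turn on the probe set: the log2 difference of 1421036_at, at 1.42, was much closer to the 1.13 of Arntl than that of 1421037_at.

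**Figure D2:**
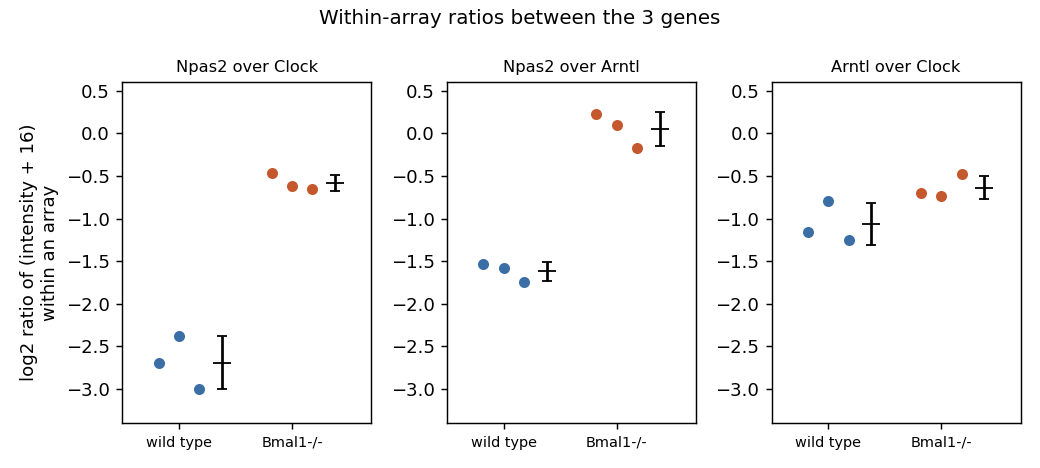
Log2 ratio of (intensity + 16) between 2 of the 3 genes within each array, wild type in blue and Bmal1-/- in orange, in the order of the replicates. Black bars give the mean and SD of 3 arrays. Npas2 gains on Clock by 2.11 and on Arntl by 1.68, and Arntl gains on Clock by 0.43.

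The regulators that act on these genes through the RRE split by class. Of 9 listed, 7 had a probe set of their own and 5 were tested: 2 fell, none rose and 3 did not pass, with a list median of 0.00 against 0.00 over all 8033 tested genes. Of the tested genes 5.66% were called in either direction, 3.0% higher and 2.66% lower. Both that fell encode the REV-ERB repressors. Of these, Nr1d1 entered the test only through the wild-type arrays, so only the call of Nr1d2 can be set beside that share. Nr1d2 read 1083.4, 1309.8 and 1424.7 in wild-type pools and 63.8, 91.5 and 79.9 on the arrays labelled Bmal1-/- (log2 fold change -3.77, SE 0.13). Nr1d1 read 68.5, 57.9 and 69.5 against 3.6, 9.3 and 2.6 (-1.95, SE 0.17). In both, the wild-type arrays lay far above the others, the reverse of the 3 bHLH-PAS genes.

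Rora and Rorb, which encode ROR activators of the same element, did not pass. Rora read 71.3, 85.5 and 72.4 in wild-type pools and 71.8, 74.6 and 81.8 on the arrays labelled Bmal1-/-. Rorb read 37.6, 55.5 and 40.2 against 38.3, 40.5 and 53.7. The genotypes overlapped fully in both, with log2 fold changes of 0.00 (SE 0.12 and 0.16). A second Rora probe set had -0.31 (adjusted p = 0.325). Hdac3, the deacetylase of the REV-ERB corepressor complex, had 0.12 (SE 0.12). Ppara and Ppargc1a, a receptor and a coactivator that raise Arntl in liver and muscle, were too dim to be tested.

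Among 3 other clock genes known to be driven through an RRE, 2 were tested and both rose, as Arntl, Clock and Npas2 did. Of all tested genes, 3.0% were called higher. With 2 tested genes, listed with earlier results of these data known, the count only describes them. Cry1, a repressor of the BMAL1 pairs, read 95.7, 95.5 and 115.2 in wild-type pools and 361.6, 436.7 and 467.9 on the arrays labelled Bmal1-/- (log2 fold change 1.89, SE 0.12). Nfil3, a D-box repressor, read 51.6, 58.3 and 62.5 against 127.1, 164.7 and 182.8 (1.23, SE 0.14). The 3 arrays of each genotype stayed apart in both. E2f8, a cell cycle repressor, was dim on every array, at 5 to 10.6 in wild-type pools and 5.8 to 9.5 on the arrays labelled Bmal1-/-.

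The E-box genes through which the activity of BMAL1 pairs is usually read moved mostly the other way. Of 17 listed, 14 were tested: 8 fell, 2 rose and 4 did not pass, so 71.4% were called where 5.66% of all tested genes were, and the list median was -0.70. The 8 include Nr1d1, which entered the test only through the wild-type arrays. Dbp, an activator at D-boxes, read 375.2, 490.5 and 455 in wild-type pools and 58.5, 80.5 and 66.9 on the arrays labelled Bmal1-/- (log2 fold change -2.43, SE 0.13). Per3, a Period gene, read 80.9, 103.6 and 124.7 against 26.7, 21.7 and 25.4 (-1.54, SE 0.16). After Nr1d2, Nr1d1, Dbp and Per3 came Wee1, a mitotic kinase (-0.92, SE 0.14), Usp2, a deubiquitinase (-0.90, SE 0.12), Tef, a relative of Dbp (-0.85, SE 0.10), and Per1 (-0.53, SE 0.13). Cry1 rose, as given above, and so did Hlf, another relative of Dbp (0.61, SE 0.13). Per2 (-0.54), Cry2 (0.35), Bhlhe40, a repressor at E-boxes (-0.27), and Nampt, an enzyme of NAD synthesis (-0.01), did not pass.

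Of these E-box calls, only those of Per1 and Hlf were lost under any alternative in which the gene was tested. In the brightest 40% of probe sets, where Nr1d1 and Per3 were not tested, 8 were called. Per1 lost its call with each array but wild-type replicate 2 left out (limma adjusted p of 0.0859 to 0.138), and Hlf did so if any of wild-type replicate 1 (0.0688), Bmal1-/- replicate 5 (0.0899) and Bmal1-/- replicate 6 (0.085) was omitted. Both were also lost with no limit on brightness (0.0891 and 0.0661) and without the intensity trend (0.0657 and 0.0729), and Per1 with equal array medians (0.0539). The dimmer Hlf probe set had 0.30 and did not pass (adjusted p = 0.204). These lists hold genes known from earlier work to follow the clock and were drawn up with results of these arrays in view, so the counts describe them and are no independent evidence.

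The letters CACGTG stood in the promoter windows of 5 of the 13 listed E-box genes that have a window. Of all genes with a window, 8.09% hold them. Of the 8 that fell, 7 have a window and 2 hold it, Per1 and Tef. Cry1, which rose, holds it too, as do Bhlhe41, too dim to be tested, and Ciart, which has no probe set of its own. The sites of Per1, Tef and Cry1 are printed, with the match in capitals, because the same letters stood in genes that moved in opposite directions.
Per1, chr11:69098774-69098797, plus strand: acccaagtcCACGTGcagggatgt
Tef, chr15:81802537-81802560, plus strand: ctgtggctcCACGTGctgcagctg
Tef, chr15:81811267-81811290, plus strand: ctggcccagCACGTGtctacatcg
Cry1, chr10:85185100-85185123, minus strand: gccggtggtCACGTGgggtgcatg
The matches begin 166 bases before the annotated start in Per1, 127 and 138 bases before 2 separate starts in Tef, and 60 bases before it in Cry1. The windows of Nr1d1, Nr1d2 and Dbp, which fell furthest, hold no CACGTG, which says only that these letters are not in these windows.

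**Figure D3:**
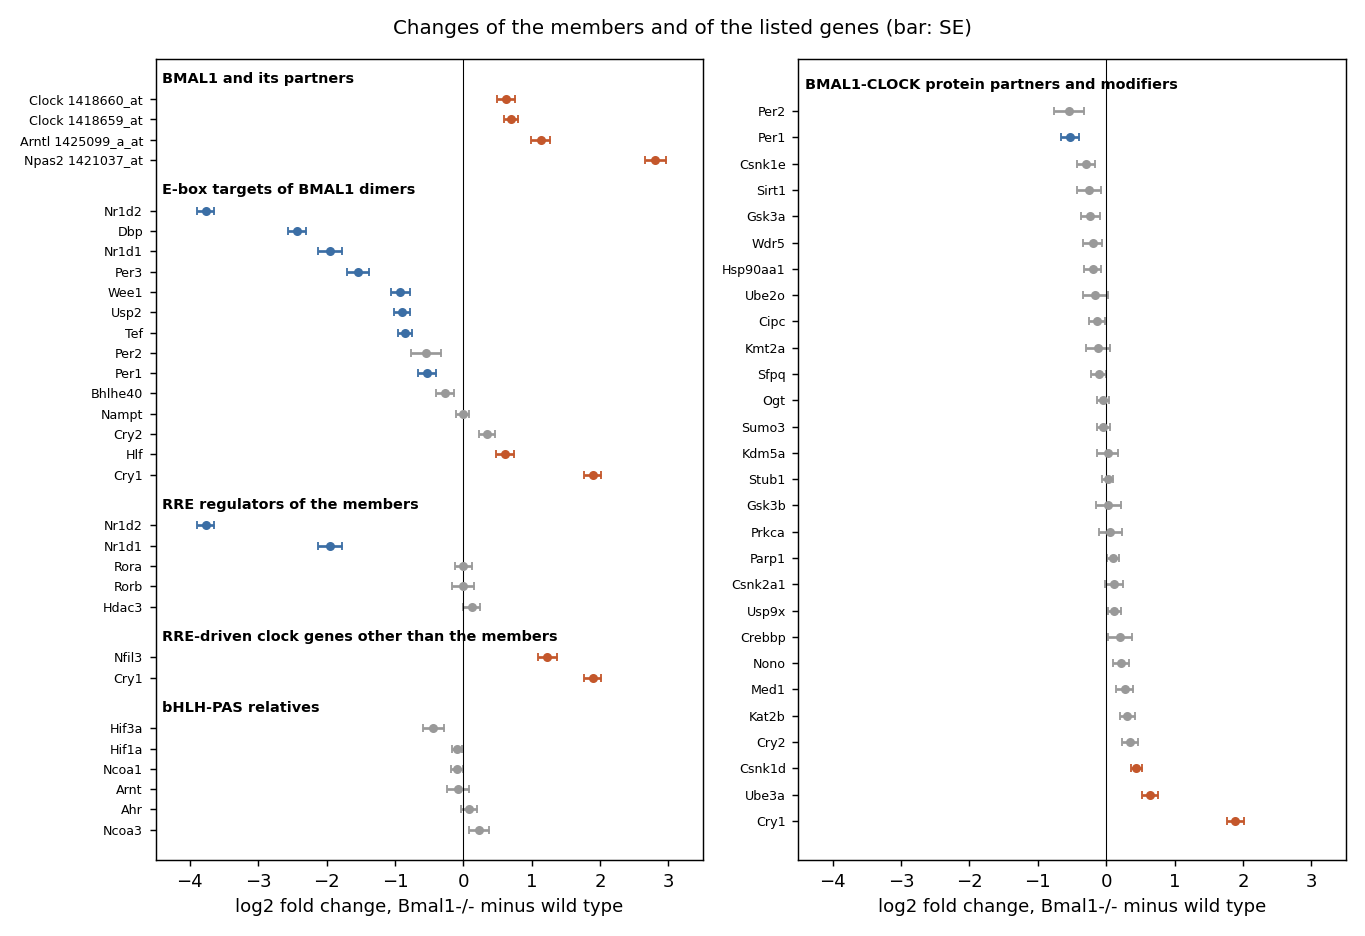
Log2 fold change (Bmal1-/- minus wild type, bars: SE) of the tested probe sets of Arntl, Clock and Npas2 and of the brightest tested probe set of each listed gene. Orange points passed the test upward, blue ones downward and grey ones did not pass. The 4 probe sets of the 3 genes all lie to the right of 0, with Nr1d2 (-3.77) furthest to the left.

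Few other members of the bHLH-PAS family were bright enough to be tested. Of 16 listed relatives, 15 had a probe set of their own, 6 were tested by limma and 9 were not. Among the 6, 0 passed, with a list median of -0.08. Since 5.66% of all tested genes were called, 0 of 6 is no result about the family. Of the 6 brightest probe sets, 1 had an unadjusted p under 0.05. It was that of Hif3a, a relative of the hypoxia factors, at 61, 47.6 and 64.2 in wild-type pools and 35.1, 34.6 and 44.5 on the arrays labelled Bmal1-/- (log2 fold change -0.44, SE 0.15, adjusted p = 0.103). Hif1a, the oxygen-regulated factor, had -0.09 (adjusted p = 0.493), and its 2 dimmer tested probe sets had -0.33 (adjusted p = 0.177) and -0.37 (adjusted p = 0.163), both with an unadjusted p under 0.05. The steroid receptor coactivators Ncoa1 and Ncoa3 had -0.09 and 0.23. Arnt, the general partner after which Arntl is named, had -0.08, with values of 26.2 to 33.9 and 22 to 33.9. Ahr, the dioxin receptor, had 0.08.

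Arntl2 (BMAL2), the paralogue that can take the place of BMAL1, stayed near background in both genotypes. It read 2, 8.2 and 3.6 in wild-type pools and 7.3, 1.7 and 3.2 on the arrays labelled Bmal1-/-, with full overlap, and was under the limit for testing. Among the partners of the pair, then, the relative of CLOCK came up from the same dim range and the relative of BMAL1 did not. The neuronal bHLH-PAS genes Npas1 and Npas3 were also under the limit, at 1 to 11.8 and 0.4 to 9.8 in wild type.

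Most genes whose products bind or modify the BMAL1-CLOCK pair did not pass. Of 31 listed, 28 were tested, 3 rose, 1 fell and 24 did not pass, 14.3% called against 5.66% of all tested genes, with a median of 0.02. Of the 4 called, Cry1 and Per1 are clock genes already described. The others are Csnk1d, a kinase of PER proteins, which rose from 346 ± 23.9 to 474 ± 1.89 (log2 fold change 0.44, SE 0.08), and Ube3a, a ubiquitin ligase that acts on BMAL1, which rose from 203 ± 27.4 to 324 ± 43.7 (0.64, SE 0.12). Both rested on their brightest probe set, which for Csnk1d has a suffix (_x_at) that marks probes shared with other sequences: the 4 other tested probe sets of Csnk1d had -0.05 to 0.30, the 2 others of Ube3a had -0.18 and -0.41, and none passed. The Ube3a call was lost without wild-type replicate 3 (limma adjusted p = 0.0519).

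Further members of this group did not pass. Cipc, a repressor that binds CLOCK, had a log2 fold change of -0.13 (SE 0.12) and Csnk1e, a kinase of PER proteins like Csnk1d, had -0.29 (SE 0.13, adjusted p = 0.247). Gsk3b, which phosphorylates BMAL1, had 0.03 (SE 0.18). The coactivator genes Kat2b and Crebbp had 0.31 (adjusted p = 0.117) and 0.20, and Sirt1, a deacetylase that binds CLOCK, had -0.25. Hsp90aa1, a chaperone, had -0.20 at its brightest probe set, while a dimmer one passed at 0.31 (adjusted p = 0.0298).

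Among the genes that lie next to the 3 on the chromosome, 1 rose, beside Clock. Of the 5 protein-coding genes on each side of each, 30 in all by RefSeq gene order, 15 were tested, 5 were too dim and 10 have no probe set of their own. Of the 15, 1 passed (5.66% of all tested genes did), so the count is no result about the neighbours. Nmu, the gene of the neuropeptide neuromedin U, is the second gene after Clock in that order and read 10.4, 5.9 and 6.3 in wild-type pools and 86.7, 58.1 and 57.6 on the arrays labelled Bmal1-/-. Its log2 fold change was 1.81 (SE 0.17, limma adjusted p = 9.68e-05), from wild-type values under the limit for testing, like those of Npas2. Nmu thus entered the test only through the arrays labelled Bmal1-/-, and its call adds little to its values. Between Clock and Nmu lies Pdcl2, too dim to be tested, at 3.6 to 8.7 and 0.5 to 7.8. Beyond Nmu, Exoc1 had 0.08 (SE 0.13). On the other side, Tmem165 had -0.19 (adjusted p = 0.155), Srd5a3 0.30 (0.175), Kdr -0.38 (0.288) and Pdgfra -0.13 (0.784).

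Next to Arntl, none of 5 tested genes passed. Btbd10, the nearest on its far side, read 212.7, 231.6 and 265.1 in wild-type pools and 189.9, 154.3 and 183.5 on the arrays labelled Bmal1-/-, without overlap and opposite in direction to Arntl (log2 fold change -0.40, SE 0.11, adjusted p = 0.0604). Far1 had -0.24, Rras2 0.27, Parva 0.20 and Mical2 0.09. Next to Npas2, the 4 tested genes had log2 fold changes of 0.29 (Pdcl3, adjusted p = 0.152), 0.05 (Chst10), -0.02 (Tbc1d8) and -0.17 (Rnf149), against 2.81 for Npas2 itself.

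**Figure D4:**
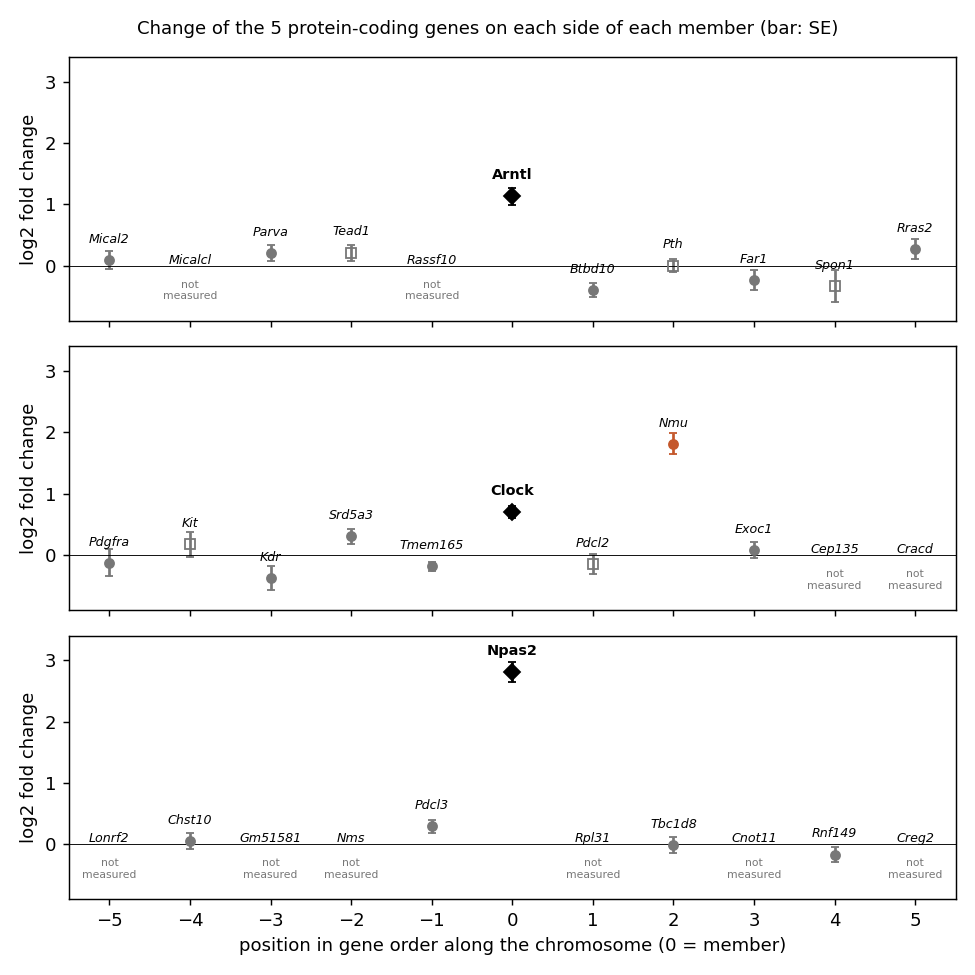
Log2 fold change (Bmal1-/- minus wild type, bars: SE) of the 5 protein-coding genes on each side of Arntl, Clock and Npas2, in gene order and not to distance. Black diamonds are the 3 genes, the orange point passed the test, grey circles did not pass, open squares were too dim for the test and genes marked not measured have no probe set of their own. Nmu, at 1.81, is the only neighbour that passed.

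The probe sets whose pattern over the 6 arrays was closest to each gene were ranked by the root mean square difference of their log2 deviations from their own means, as a description. For Arntl these were Cntn1, an axonal adhesion gene (difference 0.10, and 0.13 at its second probe set), Parm1 (0.11), Dio2, the deiodinase that makes active thyroid hormone (0.12), and Tppp3 (0.13). Cntn1 read 271, 275.9 and 237.8 in wild-type pools and 516.1, 534.3 and 599.4 on the arrays labelled Bmal1-/-. Dio2 read 169.2, 220.2 and 196.4 against 420, 452.3 and 441.9. For Clock they were Cd24a, Pfkp, a phosphofructokinase, and Me1, malic enzyme (each 0.06), with Vopp1 and Epb41l3 (each 0.07).

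Npas2 had no such close match. Its nearest was Nmu, at 0.53, followed by Cry1 (0.54), Ccn3 (0.64), Pla2g7 (0.64) and Npnt (0.65). Nmu and Npas2 shared the order of the arrays labelled Bmal1-/- only in that replicate 4 was highest, at 86.7 and 134.5. Among themselves, the distance was 0.27 between Arntl and Clock, 0.85 between Arntl and Npas2 and 1.07 between Clock and Npas2. Each such difference over 6 arrays is set mainly by the size of the change between genotypes.

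The arrays carried the pituitary transcripts their label calls for: the summed level of the somatotroph markers Gh and Ghrhr was 18786 to 21066 in wild-type pools and 15835 to 17129 on the arrays labelled Bmal1-/-. Of 50 listed markers of 14 cell types, 44 had a probe set of their own and 31 were tested. Of these, 3 rose and 4 fell, so 22.6% were called where 5.66% of all tested genes were. No probe set was at 0 on all arrays, and 12 stayed below 17.3 on every array. They included all 4 of the posterior lobe pituicyte and all 3 of the skeletal muscle markers, the fat marker Adipoq and the folliculostellate marker S100b.

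The summed levels of 8 of the 14 cell types did not overlap between the genotypes, where 25.9% of single tested probe sets did not overlap in either direction. Besides the somatotroph markers, of which both Gh (log2 fold change -0.27) and Ghrhr (-0.66) fell, these sums were mostly set by 1 bright gene. The corticotroph and melanotroph sum (9931 to 11668 in wild type against 8755 to 9860) was mostly Pomc (-0.24, limma adjusted p = 0.0731). The thyrotroph sum (13680 to 15530 against 11536 to 12932) followed Cga, which fell (-0.31), while Tshb had -0.04 and Trhr 0.12. The folliculostellate sum (478 to 617 against 663 to 722) followed Aldh1a2, which rose (0.58), while S100b had -0.49 in the fit of all probe sets and did not pass. The oligodendrocyte sum (86.1 to 119 against 138 to 159) followed Mbp, which rose (0.52), with Mog and Mag below 17.3 on every array. The endothelial sum (358 to 410 against 438 to 480) followed Plvap, which rose (0.40), while Kdr had -0.38, Pecam1 -0.10 and Cdh5 0.06. The macrophage sum (357 to 382 against 256 to 291) held C1qa, which fell (-0.48), and Csf1r (-0.43), C1qb (-0.22) and Cd68 (-0.08), which did not pass. The fat cell value (2.2 to 4.7 against 0.2 to 0.4) was Adipoq alone, near background throughout. The part of these markers in the rise of Arntl, Clock and Npas2 was not tested.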

How the data were processed

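Whole pituitaries were measured on Affymetrix mouse arrays. Each probe set has 1 deposited intensity per array, made by the authors with MAS5 per the submitters' processing notes. The sources used here give no MAS5 version, target value or detection call. MAS5 subtracts a mismatch signal, so low intensities are noisy. Of 22690 probe sets, 64 controls were left out. The annotation gives 20393 probe sets 1 gene, 691 several and 1606 none listed, and 99.9% of the first matched RefSeq by gene ID.

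Values were taken as log2(intensity + 16), without further normalization. The brightest 60% by mean level were tested two-sided with limma 3.58.1 in R 4.3.3 (lmFit, then eBayes fitting a trend with intensity). Fold changes on this scale understate changes of dim genes. A gene in a list is its brightest tested probe set. The procedure was tested on simulated data with independent normal errors and changes planted only among the brighter probe sets. The outcome of that test is not given here and is no evidence for any gene above. Gene lists, members and the rule for named genes (all members, all called list genes and up to 4 others per list, neighbours, 5 closest patterns) were chosen with earlier results of these data known. Further genes are named for their role. No batch is named in the labels. The number of arrays limits the precision.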

Additional observations from a re-analysis of the deposited data

How the results depend on the processing

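The rises of Arntl, Clock and Npas2 kept their direction and their call at the brightest probe set under all alternatives tried: an added constant of 1 or 64, no limit on brightness, the brightest 40% (in which Npas2 was not tested), equal medians, quantile normalization, no intensity trend, robust eBayes, array weights estimated from the data, and omission of each array in turn. For Npas2 the kept call adds little, since under a brightness limit it entered the test only through the arrays labelled Bmal1-/-. The log2 fold change ranged from 0.73 to 1.38 for Arntl, 0.54 to 0.77 for Clock and 1.44 to 5.15 for Npas2. With 1 array left out the ranges were 1.06 to 1.23, 0.66 to 0.73 and 2.69 to 2.93. The second Clock probe set, with no limit on brightness, had 0.62 (limma adjusted p = 0.0528). The differences between the changes of 2 genes kept their sign. The count of changed probe sets was 752, but 330 with no limit on brightness, 407 without the trend and 314 to 950 with 1 array left out (314 without wild-type replicate 3, 425 without wild-type replicate 1, 425, 329 and 410 without Bmal1-/- replicates 4, 5 and 6). Called RRE regulators fell to 1 in the brightest 40%, where Nr1d1 was not tested. Called binders and modifiers fell to 2 without the trend and ranged from 2 to 5 with 1 array left out, 2 of them without wild-type replicate 3. The Csnk1d call was lost without the trend (0.0511). No paired analysis was made because the labels give no pairing between the genotypes. MAS5 signal near background limits Npas2 in wild type.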

Other observations

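Some bHLH-PAS genes too dim for the main test kept the genotypes apart and were picked out after their values were seen. Of the tested probe sets, 25.9% did not overlap in either direction, and no such share was taken over the dimmer ones. The separation is therefore no result about these genes. Ahrr, the repressor of the dioxin receptor, read 6.4, 4.6 and 1.3 in wild type and 8.3, 18 and 14.1 on the arrays labelled Bmal1-/-. Sim2, a neural developmental factor, read 22.1, 4.9 and 11.5 against 4.2, 0.8 and 0.9. Ncoa2, a steroid receptor coactivator, read 13.9, 20.6 and 16.2 against 11.6, 6.1 and 2.6. In the fit of all probe sets none passed, with limma adjusted p of 0.165, 0.177 and 0.185.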
